A study of Ovis aries with 18 samples.

Results

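Fibroblast growth factor (FGF) signalling genes were followed in sheep blastocysts from control and methionine-treated sires. The list was drawn up by gene name and role and holds 10 genes, namely the ligands FGF4 and FGF2, the receptors FGFR1, FGFR2 and FGFR4, the feedback inhibitors SPRY2, SPRY4 and DUSP6, and the transcription factors ETV4 and ETV5. Of these 10 genes, 8 had a row among the 20092 genes of the count table, and 7 were among the 16488 genes with enough counts to be tested. FGF2 and SPRY4 were not analysed here, and FGF4 is described from its counts and an exact permutation test, outside the fit of the tested genes.

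The sires were 6 Polypay rams. The 3 control rams (Ram410, Ram423 and Ram444) ate a basal diet, and the 3 methionine-treated rams (Ram424, Ram498 and Ram511) ate the same diet topped with 1.5 g of methionine coated against breakdown in the rumen. Feeding lasted 77 days from a mean age of 88 days, and mating to superovulated Polypay ewes followed after it had ended. Blastocysts were flushed 8 days after the rams joined the ewes and sequenced as 12 pools of 5 embryos, whole, so that inner cell mass and trophectoderm were measured together. The pools numbered 2 for each control ram, 4 for Ram424 and 1 for each of the other two treated rams, so each sire was seen through few embryos.

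FGF signalling works through secreted ligands that bind receptor tyrosine kinases at the cell surface together with heparan sulfate. The activated receptor passes the signal through adaptor proteins to RAS and the ERK kinases, and ERK then switches on its own brakes (Sprouty proteins and the phosphatase DUSP6) and the ETS factors ETV4 and ETV5. In the mammalian blastocyst, FGF4 is known as a product of the epiblast and its precursors, and FGF signalling is known to favour hypoblast over epiblast within the inner cell mass and, in rodents, to sustain trophoblast stem cells.

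Total counts per pool were 1173289 to 1554651 in control pools and 1017847 to 2398589 in methionine pools. These totals are a small part of the reads per pool that the paper reports, and where the other reads fell was not examined. How much of a gene's level is background was not tested. Levels are given as CPM, a count relative to the library total after TMM scaling in edgeR, which is not corrected for gene length and so is compared between pools but not between genes. Pools Embryo444_2 (control) and Embryo511_1 (methionine) stood apart from the rest. Over all genes they had Spearman correlations of 0.69 to 0.75 with the other 10 pools, which correlated at 0.87 to 0.97 with each other. Several markers of a blastocyst were also low in these 2 pools. KRT8, a keratin of the trophectoderm, was at 116 CPM in Embryo444_2 and 42.6 CPM in Embryo511_1 but at 3893 to 11862 CPM in the other 10. The 6 measured trophectoderm markers summed to 244 CPM in Embryo444_2, 194 CPM in Embryo511_1 and 5266 to 14690 CPM in the others, and the 5 measured epiblast markers to 115, 174 and 214 to 599 CPM. The 5 measured hypoblast markers summed to 273, 289 and 419 to 961 CPM. The epiblast sum holds POU5F1, at 14.2 and 39.7 CPM beside 132 to 521 CPM. The hypoblast sum holds GATA6, at 38.9 and 66.4 CPM beside 249 to 801 CPM. A fall is not shown for the other epiblast and hypoblast markers. Of these markers, SOX17 had a count of 0 in Embryo511_1 and none was at 0 in Embryo444_2. GATA3, TFAP2A, SOX2 and HNF4A were not analysed here. Results are therefore given with and without these 2 pools. In every pool, 94.2% to 97.4% of all genes had at least 1 count. In pooled whole embryos, fewer cells of a type and less RNA per cell cannot be told apart.

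FGF4, the ligand of the epiblast, was close to the limit of detection. Its counts were 0 in control pools Embryo410_2, Embryo423_1 and Embryo423_2 and in methionine pool Embryo424_2. The highest counts were 13 in control pool Embryo444_1 and 16 in methionine pool Embryo498_1, and the remaining 6 pools had 2 to 5. Only 1 pool thus reached the 15 counts that the filter asks of more than 3 pools. On the CPM scale the lowest, median and highest levels were 0, 0.708 and 9.22 in control pools and 0, 1.71 and 9.63 in methionine pools. A count of 0 allowed a level of up to 1.70 to 2.14 CPM in those 4 pools (3 counts, counting error only). In Embryo444_1 and Embryo498_1 the exact Poisson 95% intervals were 4.91 to 15.8 CPM and 5.51 to 15.6 CPM, which overlapped widely. The diets overlapped, and no difference beyond the scatter of pools was found (p = 0.509, exact permutation test on log2(CPM + 1), two-sided).

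**Figure D1:**
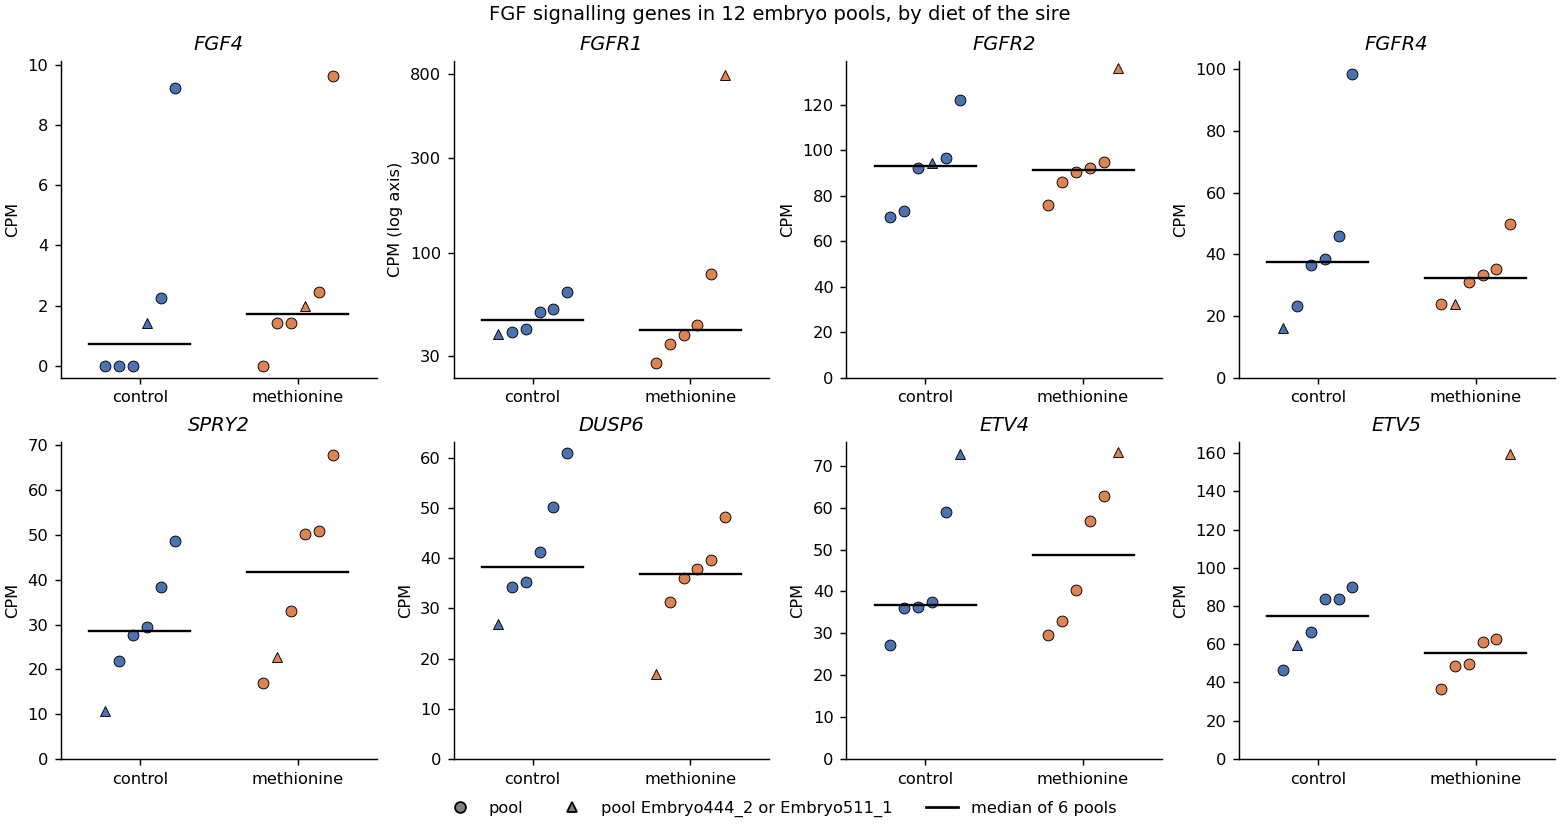
Level of 8 FGF signalling genes (CPM, TMM-scaled; the FGFR1 axis is logarithmic, the others linear) in the 6 control and 6 methionine pools. Each point is a pool, triangles are the pools Embryo444_2 and Embryo511_1, and lines are medians. For each gene the diets overlap, and FGFR1 stands at 787 CPM in Embryo511_1 alone.

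FGFR1, the receptor that binds FGF4 and FGF2 in many embryonic tissues, had the largest fold difference between the diets among the 7 genes, and it came from 1 pool. In control pools its level was at lowest 38.9, in the median 45.5 and at highest 63.2 CPM. In methionine pools the lowest was 27.5, the median 40.8 and the highest 787 CPM. The highest value was that of Embryo511_1, which held 794 counts (exact Poisson 95% interval 733 to 844 CPM), while each other pool had between 27.5 and 78.3 CPM. The log2 fold change of methionine over control was 1.81 (standard error 0.73, 95% interval 0.26 to 3.36) with an unadjusted p of 0.024, and it did not pass the FDR threshold of 0.05 (FDR 0.592, edgeR's quasi-likelihood test). Without Embryo511_1 the mean was 44.4 ± 19.8 CPM (SD, n = 5) in methionine pools against 47.5 ± 9.40 CPM (SD, n = 6) in control pools. The log2 fold change then became -0.10, and it was -0.16 (95% interval -0.75 to 0.43) without both pools that stand apart.

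Such single high values were most frequent in that pool. In Embryo511_1, 110 of the 16488 tested genes (0.667%) exceeded 10 times the median of the other 11 pools, against 4 to 24 genes (0.0243% to 0.146%) in each other pool. FGFR1 was at 19.2 times that median and was the only one of the 7 FGF genes to exceed 10 times it in any pool. The part of the low blastocyst markers of this pool (such as KRT8 and POU5F1) in its FGFR1 level was not tested.

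FGFR2, a receptor known from trophoblast and hypoblast cells, varied least of the 7 genes. Its lowest, median and highest levels were 70.7, 93.1 and 122 CPM in control pools and 75.9, 91.3 and 136 CPM in methionine pools. The coefficient of variation over the 12 pools was 20.2%, where counting error alone would give 8.39% at its mean of 142 counts. The highest pool was again Embryo511_1. A difference between the diets was not detected, the log2 fold change being 0.07 (standard error 0.22, 95% interval -0.40 to 0.53, FDR 0.958).

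FGFR4, a receptor with a narrower tissue range that is also known from early endoderm, had its highest level in a single control pool. Control pools had 16.3 CPM at lowest, 37.5 in the median and 98.6 at highest, and methionine pools 23.8, 32.2 and 49.98 CPM. The value of 98.6 CPM belonged to Embryo423_1, while the second pool of the same ram had 36.6 CPM. The log2 fold change was -0.39 (standard error 0.37, 95% interval -1.17 to 0.39, FDR 0.801), and it was 0.03 when Embryo423_1 was left out. Over 12 pools the coefficient of variation was 56.3%, against a counting error of 13.1%.

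SPRY2, a Sprouty protein that dampens the pathway between receptor and RAS, differed several-fold between pools of both diets. Its lowest, median and highest levels were 10.6, 28.6 and 48.6 CPM in control pools and 16.9, 41.6 and 67.9 CPM in methionine pools. The upper values were those of Embryo424_1, Embryo424_2 and Embryo424_4, at 67.9, 51.0 and 50.1 CPM, but Embryo424_3 from the same ram had the lowest level of the methionine pools. The log2 fold change was 0.46 (standard error 0.38, 95% interval -0.34 to 1.26, FDR 0.765). It was -0.06 without Ram424, that is with 2 methionine pools, so the positive value rested on the pools of this ram.

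DUSP6, the phosphatase that removes the activating phosphates of ERK, had lowest, median and highest levels of 26.9, 38.3 and 61.0 CPM in control pools and 16.9, 36.9 and 48.3 CPM in methionine pools. The lowest pool of each diet was the one that stands apart, Embryo444_2 and Embryo511_1. Among the other 10 pools DUSP6 kept to 31.3 to 61.0 CPM with a coefficient of variation of 21.9%. The log2 fold change was -0.24 (standard error 0.28, 95% interval -0.83 to 0.36, FDR 0.842). Its sign was negative in all 28 alternative fits, where the value lay between -0.77 and -0.10. These fits reuse the same pools, so the constant sign is not further evidence of a difference.

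ETV4 and ETV5 are ETS factors whose transcription follows ERK activity in many tissues. ETV4 had 27.1, 36.9 and 72.9 CPM as the lowest, median and highest level in control pools and 29.6, 48.6 and 73.4 CPM in methionine pools. Both highest values were in the pools that stand apart, at nearly the same level. Its log2 fold change was 0.13 (standard error 0.30, 95% interval -0.51 to 0.77, FDR 0.929). ETV5 had 46.7, 74.9 and 89.8 CPM in control pools and 36.7, 55.4 and 160 CPM in methionine pools, and its highest value was in Embryo511_1. The other 5 methionine pools had a mean of 51.8 ± 10.6 CPM (SD, n = 5), below the control mean of 71.6 ± 16.8 CPM (SD, n = 6), although the ranges overlapped. The log2 fold change of ETV5 was -0.05 (standard error 0.33, 95% interval -0.74 to 0.64, FDR 0.981) in all pools and -0.52 (standard error 0.23, 95% interval -1.01 to -0.03, unadjusted p of 0.038, FDR 0.393) without the 2 pools that stand apart. It therefore did not pass the threshold in either fit.

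**Figure D2:**
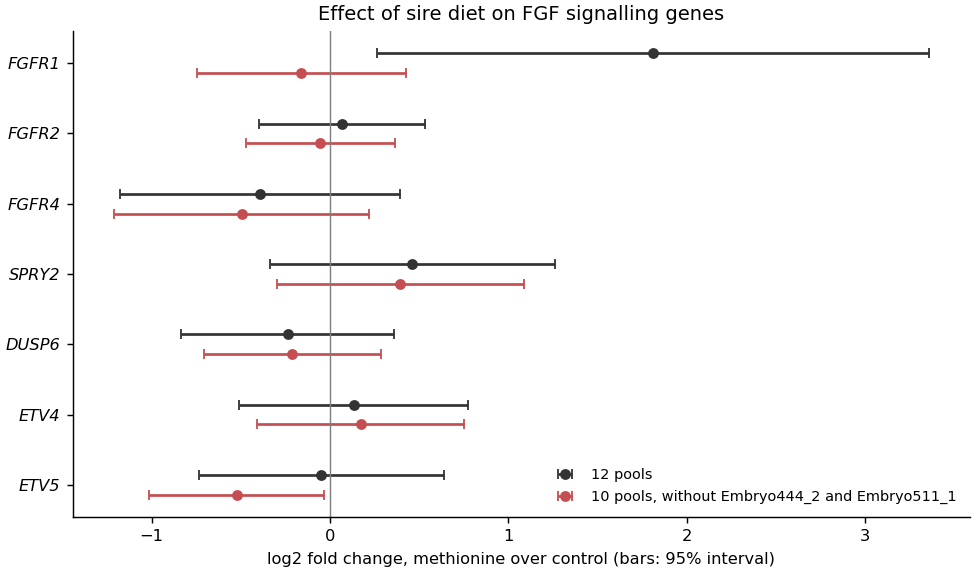
Log2 fold change of methionine over control pools for the 7 tested FGF signalling genes from edgeR's quasi-likelihood fit, with 95% intervals, in all 12 pools (dark) and in the 10 pools without Embryo444_2 and Embryo511_1 (red). The value of FGFR1 goes from 1.81 to -0.16 and that of ETV5 from -0.05 to -0.52, while the other 5 genes move less.

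The question behind the comparison was whether the diet of the sire left a trace in the transcriptome of the embryo. For the FGF signalling genes, 0 of 7 passed an FDR of 0.05 by the quasi-likelihood test of edgeR, against 0% of all 16488 genes tested. By unadjusted p under 0.05 there was 1 of 7 (FGFR1), against 7.92% of all genes. The likelihood-ratio test of edgeR and DESeq2 also called 0 of the 7 genes, although they called 5 and 16 of all genes, and DESeq2 gave no p for FGFR1. Of the 7 genes, 4 had higher and 3 lower fitted levels with methionine, with a median log2 fold change of 0.07 beside 0.01 over all genes tested. In none of the 7 did the pools of the diets lie apart, as they did in 0.352% of all genes tested. Without the 2 pools that stand apart, 1 of 7 (ETV5, lower with methionine) had an unadjusted p under 0.05, against 11.9% of all genes. With the ram as the unit no call at the FDR threshold was gained, but the value of FGFR1 changed. Its log2 fold change was 0.77 (unadjusted p of 0.29) with the ram as a random effect in limma and 2.65 (unadjusted p of 0.031) with pools summed per ram in edgeR. With pools summed per ram or with the ram as a random effect in limma, 0 of the 7 genes had an FDR under 0.05, and exact two-sided permutation tests of the 6 ram means gave p of 0.2 to 1, where 0.1 is the smallest possible. All pools of the methionine group came from 3 sires, 4 of them from Ram424, so p-values over pools treat embryos of 1 sire as independent.

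Levels were also compared between the 6 rams, with the spread between pools of a ram as the error. By the study's design the pools of a control ram came from its own single ewe, so that in controls sire and dam cannot be told apart. Of the 7 genes, 1 differed between rams at an FDR under 0.05 by edgeR's quasi-likelihood test, against 4.18% of all genes tested. It was FGFR1 (FDR 5.87e-04), which had a mean of 787 CPM for Ram511 and of 38.5 to 51.0 CPM for the other 5 rams. ETV5 followed with an FDR of 0.0715, and its highest ram was again Ram511 at 160 CPM. Because Ram511 has 1 pool, its difference from the other rams is that of 1 library. Restricted to the 4 rams with at least 2 pools, 0 of the 7 genes passed, against 0% of all genes, and FGFR1 had an FDR of 0.988 (2489 of all genes had an unadjusted p under 0.05, and none of the 7). Between those rams the lowest unadjusted p was that of FGFR4, 0.0934.

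**Figure D3:**
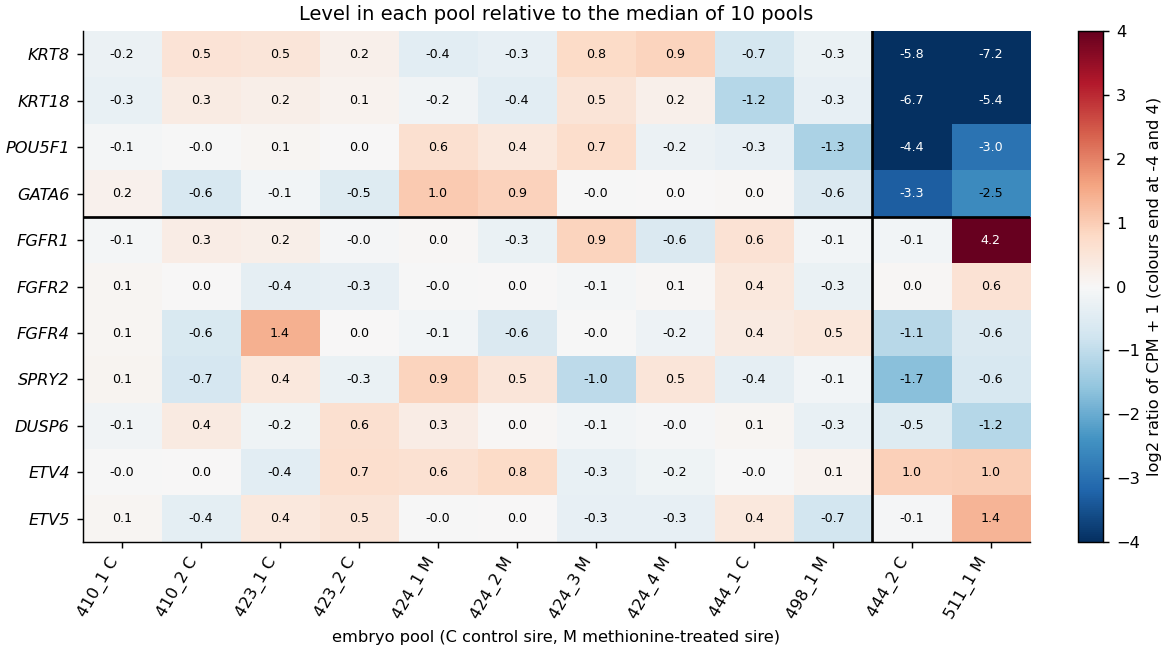
Log2 ratio of CPM + 1 in each pool to the median of the 10 pools left of the vertical line, for 4 markers of blastocyst lineages (above the horizontal line) and the 7 tested FGF signalling genes. In Embryo444_2 and Embryo511_1 these 4 markers lie between -7.2 and -2.5. The FGF genes lie between -1.7 and 1.4 there, apart from FGFR1 at 4.2 in Embryo511_1. The 4 markers (KRT8, KRT18, POU5F1 and GATA6) are a part of the marker lists, and the other listed markers are not shown.

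The 2 pools that stand apart, low in KRT8, KRT18, POU5F1 and GATA6, still held counts of the 7 tested FGF genes. As stated above, a fall is not shown for the other epiblast and hypoblast markers. Relative to the median of the other 10 pools, the levels in Embryo444_2 were 0.926 times for FGFR1, 1.03 times for FGFR2, 0.959 times for ETV5, 0.694 times for DUSP6, 0.453 times for FGFR4 and 0.297 times for SPRY2, and ETV4 was at 1.98 times. In Embryo511_1 the ratios were 1.49 for FGFR2, 1.99 for ETV4, 2.57 for ETV5, 0.662 for FGFR4, 0.638 for SPRY2 and 0.435 for DUSP6. Other named pathway genes went both ways. FGFR3 was at 0.19 times in Embryo444_2 and 0.42 times in Embryo511_1. SDC1 was at 0.044 and 0.029 times, SDC4 at 0.30 and 0.29 times and PTPN11 at 0.52 and 0.46 times. FGFRL1, GAB1 and CBL were also below the median in both, while FGF9, FGF18, KLB and IL17RD were above it in both. FGF1, FGF6, SULF1 and GPC3 lay on different sides in the 2 pools. Over the same comparison KRT8 fell from a median of 6371 CPM to 116 and 42.6 CPM, and POU5F1, the pluripotency factor of the inner cell mass, from 317 to 14.2 and 39.7 CPM. SPRY2, DUSP6 and FGFR4 were thus below the median of the other pools in both, and ETV4 was above every other pool in both. What gave rise to the counts of these genes in those 2 pools was not tested. Markers of other tissues, by their summed level, were within or above the range of the other 10 pools in both. The 6 markers of stroma and endothelium summed to 635 CPM in Embryo444_2 and 579 CPM in Embryo511_1, and to 423.5 to 649 CPM in the other 10 pools. The 2 blood markers with a row summed to 129, 255 and 41.9 to 81.3 CPM, the 4 markers of oviduct and endometrium to 144, 86.3 and 78.7 to 135 CPM, and the 1 granulosa marker to 32.6, 16.9 and 0.714 to 47.5 CPM. Between the diets, stroma and endothelium markers summed to 488 to 649 CPM in control and 423.5 to 598 CPM in methionine pools, blood markers to 46.4 to 129 and 41.9 to 255 CPM, and oviduct and endometrium markers to 92.9 to 144 and 78.7 to 116 CPM. In the diet fit, 2 of the 4 oviduct and endometrium markers had an unadjusted p under 0.05, the epithelial factors PAX8 (log2 fold change -0.93) and FOXJ1 (-1.09), and of the 6 trophectoderm markers DAB2 had one (1.26), against 7.92% of all genes. Without the 2 pools that stand apart, DAB2 had a log2 fold change of 1.28 (unadjusted p of 3.5e-05, FDR 0.096, edgeR's quasi-likelihood test). GATA2 (log2 fold change 0.71), PAX8 (-0.92) and FOXJ1 (-0.77) also had an unadjusted p under 0.05 there, against 11.9% of all genes. None of the tested markers had an FDR under 0.05 in either fit, and their part in the levels of the FGF genes was not tested.

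The FGF genes did not rise and fall together over the pools. Among their 21 pairs the Spearman coefficient over 12 pools, which share sires and depth, had a median of 0.00 with a range of -0.57 (FGFR4 with ETV4) to 0.34 (FGFR1 with ETV5), and the median over all pairs of tested genes was also 0.00. Over the 10 other pools the median was 0.05, beside -0.01 over all pairs, and the highest value was 0.54 for DUSP6 with ETV4. The receptor FGFR1 and the inhibitor SPRY2 had coefficients of -0.50 over 12 and -0.67 over 10 pools. The genes most like ETV5 over 12 pools were TBC1D8, CCND1 and KCNJ10 (coefficients of 0.92, 0.90 and 0.87), those most like FGFR2 were NXPE2, CPEB4 and PODN (0.91, 0.90 and 0.90), and those most like FGF4, at its few counts, were TAS2R39, LOC101116085 and MAN1C1 (0.93, 0.90 and 0.86). None of these 9 genes was among the 3 nearest over the 10 pools except TAS2R39 for FGF4 (0.97) and NXPE2 for FGFR2 (0.96). Each of these values is among the largest of many coefficients over few pools. How large such values would be among unrelated genes was not tested.

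The rest of the pathway was read from the same fit. Of 16 other FGF ligands with a row, 9 were tested, 4 with higher and 5 with lower fitted levels with methionine (median log2 fold change -0.14), and 0 passed the FDR threshold. An unadjusted p under 0.05 was found for 3 of them (FGF6, FGF9 and FGF18), against 7.92% of all genes, and for the same 3 without the 2 pools that stand apart, against 11.9%. FGF6, a ligand known from skeletal muscle, was lower in each methionine pool (22.3 to 34.5 CPM) than in each control pool (37.2 to 69.4 CPM), with a log2 fold change of -0.82 (FDR 0.584) and an exact two-sided permutation p of 0.00216 over pools and 0.1 over rams, each the smallest possible. Such a separation of the diets was found in 58 of all tested genes (0.352%). FGF6 was named for its small p in the diet fit, so the permutation of the same values adds no further support. Its form over pools also treats the pools of Ram424 as independent. FGF9 had 249 CPM in control pool Embryo444_1, and its log2 fold change was -1.31 (FDR 0.585). FGF18 had 417 CPM in methionine pool Embryo498_1 beside a methionine median of 22.7 CPM, and its log2 fold change was 1.65 (FDR 0.620). FGF1, the ligand that binds all FGF receptors, had control and methionine medians of 59.1 and 44.2 CPM (log2 fold change 0.18, FDR 0.929). The other 7 ligands with a row were below the filter, as FGF4 was, and FGF5, FGF7, FGF10 and FGF12 were not analysed here.

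Of the 4 other receptors and co-receptors, 0 passed the FDR threshold. FGFRL1, a receptor without a kinase domain, had the single unadjusted p under 0.05 among the 4 (7.92% of all genes), with medians of 13.1 CPM in control and 7.61 CPM in methionine pools (log2 fold change -1.16, FDR 0.620). FGFR3, a receptor tyrosine kinase, had medians of 38.5 and 44.7 CPM (log2 fold change 0.35, FDR 0.831). KLB, a co-receptor for endocrine FGFs, had medians of 48.7 and 39.7 CPM (log2 fold change -0.25, FDR 0.910).

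Among the genes that carry the signal from the receptor to ERK, 16 of 18 were tested, 11 with higher and 5 with lower fitted levels and a median log2 fold change of 0.06. None had an unadjusted p under 0.05 in the 12 pools. PTPN11, a phosphatase needed for RAS activation, had a log2 fold change of 0.05 (FDR 0.980), and the adaptor GAB1 had 0.21 (FDR 0.834). Without the 2 pools that stand apart, 4 of the 16 had an unadjusted p under 0.05, 3 higher and 1 lower, against 11.9% of all genes, and 0 passed the FDR threshold. Of 12 tested genes of further feedback and target genes, 7 were higher and 5 lower (median 0.03), and 0 had an unadjusted p under 0.05 in the 12 pools. Without the 2 pools that stand apart there were 2, against 11.9% of all genes, namely the phosphatase DUSP4 (log2 fold change -0.80) and the Sprouty protein SPRY3 (0.62), both named after their values were seen. CBL, a ubiquitin ligase that turns receptors over, had a log2 fold change of -0.03 (FDR 0.986), and IL17RD, a membrane inhibitor of FGF signalling, had 0.01 (FDR 0.994).

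Heparan sulfate enzymes and proteoglycans are needed for FGFs to bind their receptors. All 12 genes of this list were tested, 4 with higher and 8 with lower fitted levels (median log2 fold change -0.09), and 2 (SULF1 and GPC3, both lower with methionine) had an unadjusted p under 0.05, against 7.92% of all genes. Without the 2 pools that stand apart these 2 genes no longer did (p of 0.069 and 0.14 in edgeR's quasi-likelihood test), and 2 others did, SDC4 with a higher level (log2 fold change 0.72) and SULF2, a second sulfatase named here for this change, with a lower one (-0.56). SULF1, a sulfatase that trims heparan sulfate, had medians of 88.6 and 51.7 CPM in control and methionine pools (log2 fold change -0.69, FDR 0.585), and GPC3, a glypican, had 22.7 and 11.9 CPM (log2 fold change -0.83, FDR 0.608). The proteoglycan SDC1 had medians of 737 and 400 CPM (log2 fold change -0.50, FDR 0.876), and SDC4 had 107 and 179 CPM (log2 fold change 0.69, FDR 0.666). Over all 5 lists 0 of 53 tested genes passed, also by the likelihood-ratio test and DESeq2. DESeq2 gave no p for FGF9 and FGF18, so it could not call them.

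**Figure D4:**
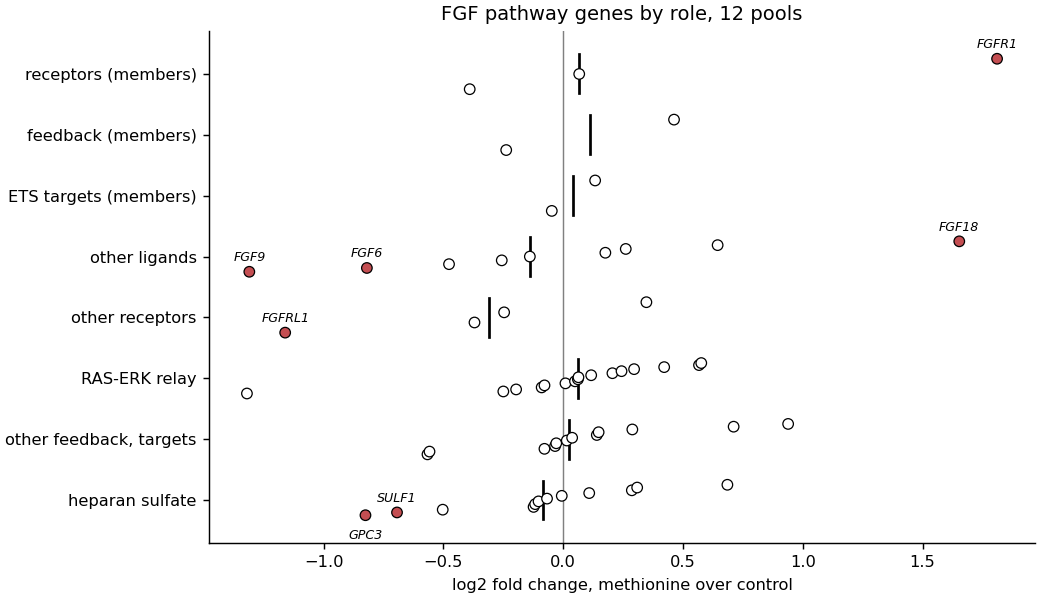
Log2 fold change of methionine over control in 12 pools for the tested FGF pathway genes, 1 row of points per role (filled points have an unadjusted p under 0.05, black bars are medians). The points lie on both sides of 0 in each role, and 0 of them passes an FDR of 0.05.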

How the data were processed

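The authors trimmed reads from whole-transcriptome-amplified RNA of each pool, aligned them to Oar_rambouillet_v1.0 with STAR and deposited raw counts per gene, without normalization. The strand used for counting is not given in the sources used here, so reads of overlapping antisense genes cannot be told apart. The paper describes no molecular identifiers for the amplified embryo RNA, so reads cannot be taken as independent molecules. Counting intervals and limits cover counting error only. Pools were grouped by the diet label.

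A gene was kept where more than 3 pools reached 15 counts. Counts were scaled by the trimmed mean of M-values (TMM), and diet was tested in edgeR (version 4.0.16; R 4.3.3) by its quasi-likelihood test. Tests are two-sided, and FDR is the Benjamini-Hochberg value over all genes. The standard error is the log2 fold change over the square root of F. The study fitted diet alone with the likelihood-ratio test, which is an alternative here, as are DESeq2 1.42.0 and limma 3.58.1. Rams were compared with the same tool. Exact permutation tests used log2(CPM + 1). These ran in Python 3.11.15 and scipy 1.17.1. The fits were tested on simulated data drawn as independent pools, with no pools that stand apart. For diet the simulation held no likeness between pools of a ram, so it does not cover these features of the data.

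All FGF genes listed are named, and of the other lists those with the 3 smallest unadjusted p under 0.05 and the 2 of highest CPM, plus the 3 genes most like FGF4, FGFR2 and ETV5. The members and lists were chosen with earlier results of these data known. Sperm methylation was not used here, because positions could not be assigned to genes of that build.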

Additional observations from a re-analysis of the deposited data

Results flagged for a closer look

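Values of CPM were checked for a pool far from the other 5 of its diet, by a gap to the next pool larger than 0.625 of the range, in 46 groups of 6 pools, and 10 were found, where chance alone gives about 1 in 20 groups of normally distributed values. Some of these genes were chosen for a small p or a high CPM, to which a single high pool contributes, so the count of 10 is not read against that rate. Among the FGF signalling genes these were FGF4 in control pool Embryo444_1 at 9.22 CPM and in methionine pool Embryo498_1 at 9.63 CPM, FGFR4 in control pool Embryo423_1 at 98.6 CPM, and 3 genes in methionine pool Embryo511_1, with FGFR1 at 787 CPM, FGFR2 at 136 CPM and ETV5 at 160 CPM. Among the other named genes of the pathway they were FGF9 at 249 CPM and KLB at 175 CPM in control pool Embryo444_1, FGF18 at 417 CPM in methionine pool Embryo498_1 and KLB at 149 CPM in methionine pool Embryo511_1.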

How the results depend on the processing

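None of the 7 FGF signalling genes and none of the 53 further genes of the pathway had an FDR under 0.05 in the diet fit or in any of 28 alternatives. Of these genes, FGFR1, FGF9 and FGF18 had no p from DESeq2, so that test could not call them. Over all genes, 5 were called by the likelihood-ratio test, 16 by DESeq2 and 1 without the 2 pools that stand apart (also 1 with the filter refitted on 10 pools), instead of 0. The fitted value of ETV5 became 0.25 with pools summed per ram, and without the 2 pools that stand apart FGFR1 became -0.16 (also -0.16 with the filter refitted) and FGFR2 became -0.054 (-0.056 refitted). The cause was not tested. Leaving out each pool or ram in turn gave log2 fold changes of -0.10 to 3.12 for FGFR1 (negative without Embryo511_1), -0.081 to 0.21 for FGFR2 (negative without Embryo511_1 or Ram423), -0.58 to 0.085 for FGFR4 (positive without Embryo423_1 or Ram423), -0.064 to 0.71 for SPRY2 (negative without Ram424), -0.77 to -0.10 for DUSP6, -0.0082 to 0.34 for ETV4 (negative without Embryo511_1) and -0.46 to 0.45 for ETV5, whose value changed sign in 9 of 18 such fits (without Embryo423_1, Embryo423_2, Embryo444_1, Embryo424_3, Embryo424_4, Embryo498_1 or Ram423, Ram424 or Ram498). For the ram, the likelihood-ratio test called 2 of the 7 genes and 3254 of all genes instead of 1 and 690, the 4 rams with several pools gave 0 and 0, and without the 2 pools that stand apart 0 and 77 were called. The 16 permutation tests over pools with another pseudocount (0.5) or scaling kept their side of 0.05, while those over rams cannot go below 0.1. No paired analysis was possible because pool numbers count pools within a ram. The alternatives without both pools and with Embryo424_1 and Embryo424_2 summed (3.28 chi-square per degree of freedom between these 2, beside at least 8.30 between other pools of a ram) were chosen after seeing the data. The methylation comparisons planned at these genes were not run.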

Other observations

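The high FGFR1 value of Embryo511_1 had no match of its size in the genes next to it. Neighbours were taken in the RefSeq order of ARS-UI_Ramb_v3.0. LETM2 and TACC1 had 34.7 and 37.7 CPM in this pool, beside medians of 30.5 and 146 CPM in the 10 pools that did not stand apart. NSD3 had 229 CPM beside 179 CPM, PLPP5 27.8 beside 35.6 CPM and PLEKHA2 106 beside 153 CPM. HTRA4, the third gene on the side of TACC1, had 54.5 CPM beside a median of 23.9 CPM, above the highest of those 10 pools (37.4 CPM). These genes were chosen by position after the FGFR1 value was seen.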
